A study of Oryza sativa Japonica Group with 8 samples.

Results

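WRKY transcription factors were followed in rice leaves as water was withheld. They were taken as the protein-coding genes whose description in the deposited tables names WRKY. By this wording 79 genes were found, 78 of them in both the total RNA and the mRNA table, and 52 of these had a mean level of at least 1 FPKM (fragments per kilobase of transcript, relative to all mapped fragments) in each table. These 52 genes, of 18113 genes of any kind that passed the same filter, are described here. The other 26 genes lay under the filter, and Os05g0567200 was listed in the total RNA table only, at up to 0.0143 FPKM. The 52 genes lie on 11 chromosomes, with 12 on chromosome 1 and 9 on chromosome 5.

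The plants were of the Ilmi variety of japonica rice, 5 weeks old and grown in soil in a greenhouse. The groups were leaves after drought stress for 1, 2 or 3 days and leaves of a well-watered control, each sequenced once as total RNA and once as mRNA, which gave 8 strand-specific libraries. The labels do not say how many plants a library holds, or whether both kinds came from the same RNA. They give 1 well-watered control for all 3 days and no hour of harvest, so withheld water cannot be told apart from plant age or time of day.

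WRKY proteins are a large family of mainly plant transcription factors, named after amino acids of their shared DNA-binding domain. They bind a short element called the W-box in the promoters of their targets, which include defence genes and often WRKY genes themselves. Mitogen-activated protein (MAP) kinases phosphorylate some of them, and small proteins with a VQ motif bind others. In rice they are best known for responses to blast fungus and bacterial blight, and several also act in abscisic acid, gibberellin, senescence and drought responses.

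With 1 library in each group there is no replicate check, no error and no test, so genes were called by size alone. A gene counted as higher where log2((FPKM on the drought day + 1)/(FPKM in the well-watered library + 1)) reached 1 in total RNA and in mRNA alike, and as lower where it reached -1 in both. The added 1 FPKM understates the ratios of weakly expressed genes. Summed FPKM over all genes lay between 678548 and 755487 in the 8 libraries. If the smallest step between low values is 1 fragment, which is an assumption, 1 FPKM of a gene of the median member length, 1317 bases, stood for 21.6 to 32.1 fragments, and in the shallowest library the 95% exact Poisson limits were 13.4 to 32.8. These limits cover counting error only.

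Messages of the leaf markers examined were much lower by day 3. The Rubisco small chain gene had 16319, 9661, 3115 and 115 FPKM in the well-watered library and on days 1, 2 and 3 in total RNA, and 9757, 6343, 1752 and 70.5 FPKM in mRNA. The summed level of 14 chlorophyll a/b-binding protein genes was 33012, 18618, 6970 and 765 FPKM in total RNA and 31380, 19013, 6456 and 776 FPKM in mRNA, and none of them was at 0 in any library. Of these 14 genes, 4, 11 and 12 were lower by the rule on days 1, 2 and 3, where 2.46%, 11.1% and 25.9% of all genes were. In whole leaves, fewer cells of a type and less RNA per cell cannot be told apart, and the part of these differences in the WRKY values was not tested.

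Many WRKY genes were higher under drought, and more of them with each day. On day 1, 5 of the 52 genes were higher (9.62%, against 6.93% of all genes) and 3 were lower (5.77%, against 2.46%). On day 2, 16 were higher (30.8%, against 14.5%) and 6 were lower (11.5%, against 11.1%). On day 3, 23 were higher (44.2%, against 18.2%) and 8 were lower (15.4%, against 25.9%). The share of WRKY genes higher was thus above that of all genes on days 2 and 3, and the share lower on day 3 was below it. The day 1 share higher was near that of all genes, and with 5 FPKM added in place of 1 it was 1 of 52 genes, against 3.58% of all genes.

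Under a 4-fold limit, no WRKY gene was higher on day 1 (1.51% of all genes were) and 1 was lower (0.265% were). On day 2 this limit left 5 higher (5.28% of all genes) and 2 lower (3.25%). On day 3 it left 13 higher (9.28%) and 4 lower (9.77%), so 13 of the 23 genes higher on day 3 were at least 4-fold higher in both kinds.

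**Figure D1:**
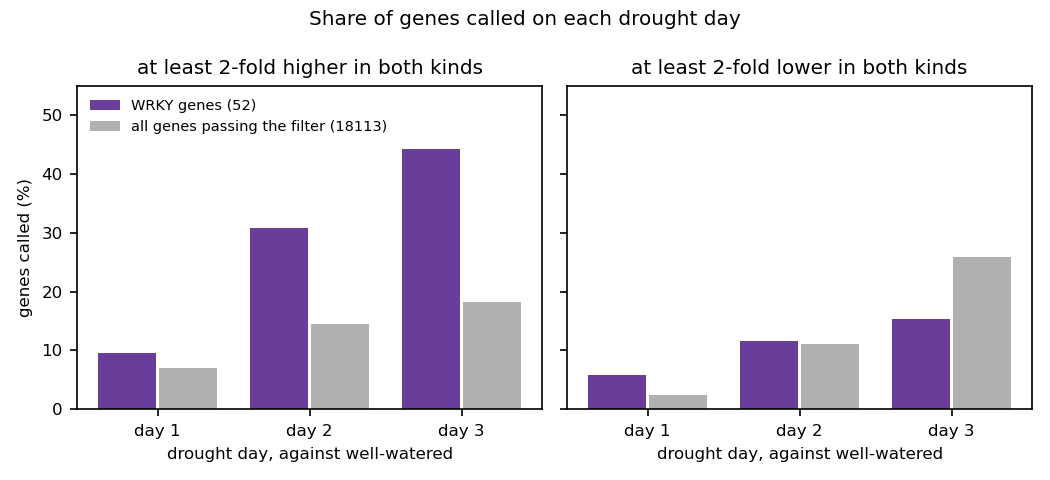
Percentage of genes called at least 2-fold higher (left panel) or lower (right panel) in both library kinds on each drought day against the well-watered libraries, for the 52 WRKY genes (purple) and all 18113 genes that passed the filter (grey). The WRKY share higher was 44.2% on day 3 against 18.2% of all genes, while the share lower was 15.4% against 25.9%.

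The median log2 ratio of the 52 genes on day 3 was 1.02 in total RNA and 0.80 in mRNA, where that of all genes was -0.24 and -0.39. On day 2 the WRKY medians were 0.43 and 0.37, against 0.11 and 0.06 for all genes. On day 1 they were 0.13 and 0.14, against 0.23 and 0.17. The WRKY medians were thus above those of all genes on days 2 and 3 and below them on day 1. The day 1 order depended on the setting. With a minimum mean of 5 FPKM the WRKY medians were above, at 0.45 and 0.35 against 0.29 and 0.22. With quantile-normalized values they were below, at -0.02 and 0.002 against 0.03 and 0.01.

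The filter favours genes that are high on any day, since it uses the mean of the 4 libraries of a table. Of the 52 genes, 8 had under 1 FPKM in both well-watered libraries, and all 8 were called higher on day 3. Without the filter, 24 of all 78 WRKY genes in both tables were higher on day 3 (12.9% of all 27626 genes were) and 9 were lower (18% were), and the day 3 medians were 0.32 in total RNA and 0.23 in mRNA. On the earlier days the unfiltered WRKY counts equalled the filtered ones: 5 higher (4.58% of all genes) and 3 lower (1.77%) on day 1, 16 higher (9.71%) and 6 lower (7.84%) on day 2. The split of calls also depended on scaling. When each table was rescaled by median ratios, the day 1 split turned to 3 higher and 5 lower of 53 genes (4.92% and 3.74% of all genes), and the day 3 split was 29 and 5 (24.7% and 19.1%). With quantile-normalized values the split was 3 higher and 6 lower of 54 genes for day 1 (5.31% and 4.20% of all genes), and 25 higher and 5 lower for day 3 (19.5% and 20.4%). Median-ratio scaling moved the all-gene medians on day 3 to 0.09 and 0.12, and the WRKY medians there were 1.25 in both kinds.

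Over the 3 days 33 WRKY genes were called at least once and 19 never, and no gene was called in opposite directions by the library kinds. The days share their well-watered libraries, so their calls are not independent. Side by side, 5 genes were higher on all 3 days and 3 were lower on all 3. A further 10 were higher on days 2 and 3, 8 were higher on day 3 alone, 2 were lower on days 2 and 3, and 3 were lower on day 3 alone. The remaining called genes, Os08g0499300 (WRKY30, higher) and Os02g0265200 (WRKY39, lower), passed on day 2 alone, and Os02g0265200 is named after its values were seen. The shares of all genes called at least once, or with each of these day patterns, were not counted. These counts therefore do not set the family apart from other genes.

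**Figure D2:**
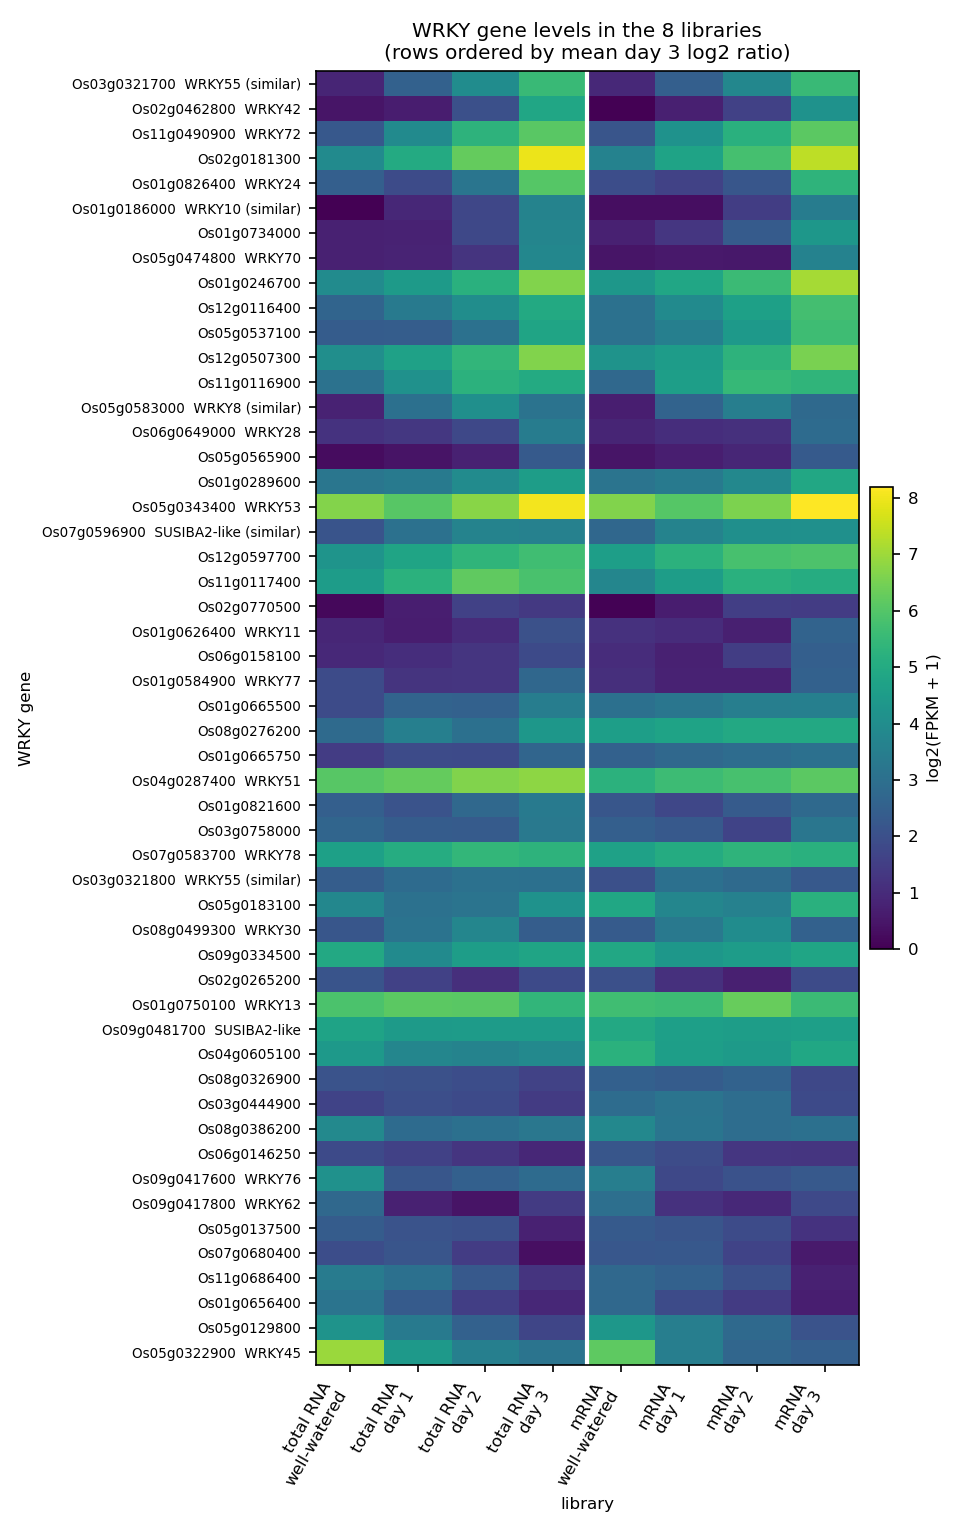
Level of each of the 52 WRKY genes (rows) in the 8 libraries (columns), as log2(FPKM + 1) on the colour scale, with rows ordered from the highest to the lowest mean day 3 log2 ratio and names as the deposited descriptions give them. The upper rows brighten towards day 3 in both kinds, and Os05g0322900 (WRKY45) at the bottom is bright in the well-watered libraries only.

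A gene of salicylate-linked disease resistance had the lowest ratios of the family on each day in both kinds, with 1 FPKM added. Os05g0322900 (WRKY45, chromosome 5, 14991579 to 14993673 in IRGSP-1.0) is known to mediate the blast resistance that salicylate and its synthetic mimics bring. It had 123, 20.2, 10.6 and 7.95 FPKM in the well-watered library and on days 1, 2 and 3 in total RNA, and 70.01, 10.4, 5.56 and 4.54 FPKM in mRNA. By level it ranked 32nd of 52 in total RNA and 38th in mRNA on day 3, where in the well-watered libraries it was the first and the second. The log2 ratios on day 3 were -3.79 in total RNA and -3.68 in mRNA, and most of the difference was already there on day 1, at -2.54 and -2.63. With 1 FPKM added, as in all ratios here, it was the one WRKY gene at least 4-fold lower on day 1 in both kinds.

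The pair Os09g0417800 (WRKY62) and Os09g0417600 (WRKY76), both known as repressors of rice defence genes, lie 15213 bases apart on chromosome 9 and were lower on each day. WRKY62 had 5.77, 0.673, 0.343 and 1.66 FPKM in total RNA, in the same order of treatments, and 6.93, 1.23, 0.907 and 2.51 FPKM in mRNA. WRKY76 had 16.6, 3.55, 4.67 and 6.23 FPKM in total RNA and 10.3, 2.45, 3.14 and 3.84 FPKM in mRNA. Neither kept falling: WRKY62 was lowest on day 2 and WRKY76 on day 1, in both kinds. The day 3 calls were narrow, at -1.35 and -1.17 for WRKY62 and -1.28 and -1.22 for WRKY76, and both were lost under median-ratio scaling, quantile-normalized values and an added 5 FPKM.

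Other defence regulators went the other way or stayed within the rule. Os05g0343400 (WRKY53), an elicitor-induced activator of defence that MAP kinases phosphorylate, had 101, 66.5, 105 and 264 FPKM in total RNA and 98.6, 64.8, 94.7 and 292 FPKM in mRNA. It was lowest on day 1 and highest on day 3 in both kinds, with day 3 ratios of 1.38 and 1.56, and it was the most abundant WRKY gene on days 2 and 3. Quantile-normalized values put the day 3 ratios at 0.89 and 1.11, which ended that call. Os01g0750100 (WRKY13), which promotes resistance to blight and blast, had 57.9, 68.4, 67.0 and 40.7 FPKM in total RNA and 49.8, 47.8, 76.9 and 47.3 FPKM in mRNA, and passed the rule on no day.

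Os05g0474800 (WRKY70), which weighs growth against defence to chewing insects, was close to silent until day 3. Its levels were 0.673, 0.771, 1.36 and 12.8 FPKM in total RNA and 0.368, 0.490, 0.454 and 11.3 FPKM in mRNA. The day 3 ratios were 3.04 and 3.17, and the ratios on the days before lay between 0.08 and 0.50. Os06g0649000 (WRKY28), a negative regulator of basal defence, had 1.29, 1.49, 2.40 and 9.85 FPKM in total RNA and 0.811, 1.11, 1.18 and 6.24 FPKM in mRNA, so it too was called on day 3 alone (2.24 and 2.00). A second gene described as similar to WRKY28, Os01g0289600, had day 3 ratios of 1.36 and 1.75, at 22.8 and 29.0 FPKM on day 3 against 8.26 and 7.92 FPKM in the well-watered libraries.

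**Figure D3:**
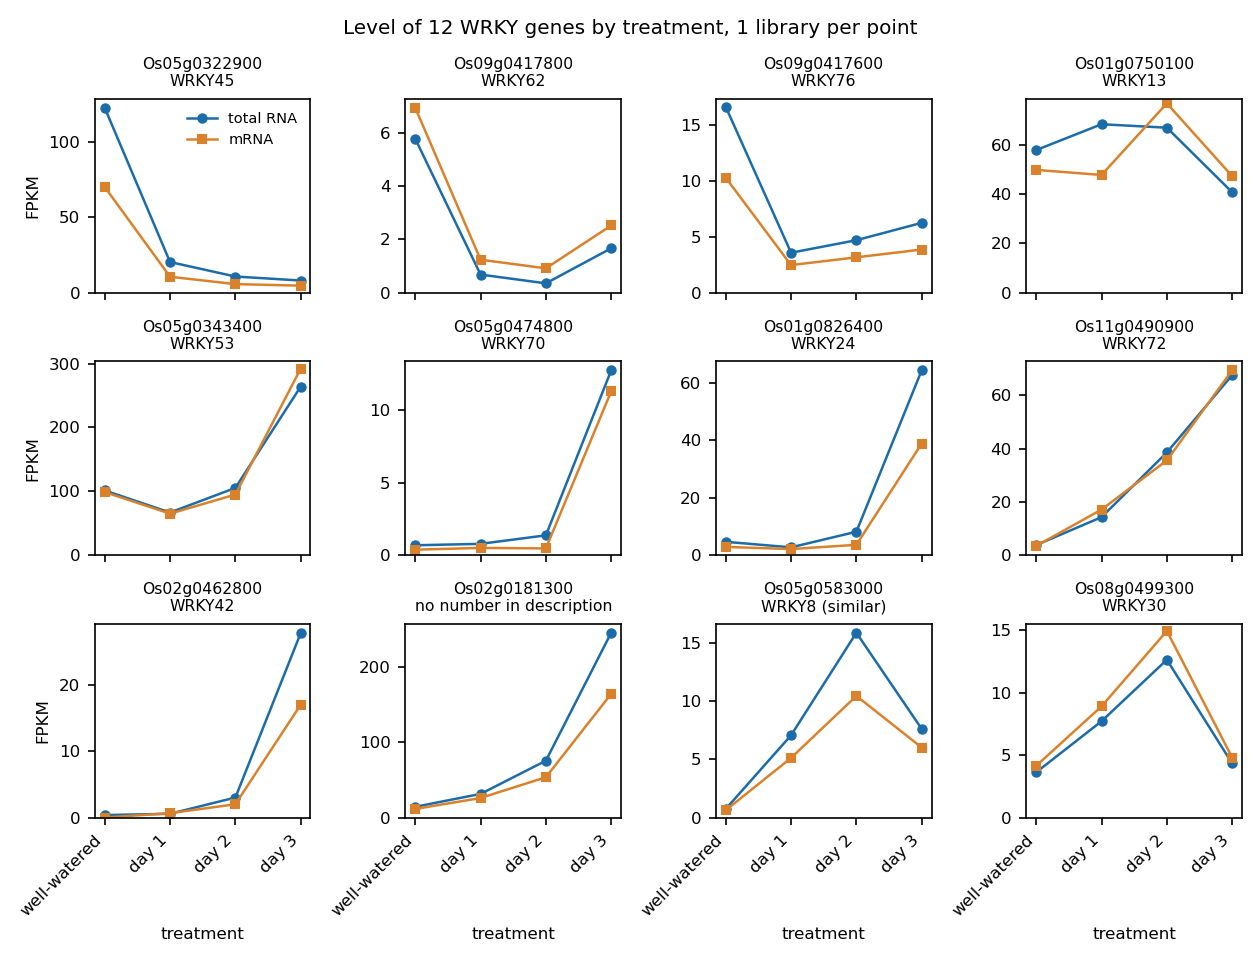
FPKM (y axis, own scale from 0 in each panel) of 12 WRKY genes in the well-watered library and on drought days 1, 2 and 3 (x axis), with total RNA as blue circles and mRNA as orange squares, 1 library per point. WRKY45 was lowest on day 3, WRKY24 and WRKY70 stood apart on day 3 alone, WRKY72 climbed at each step, and WRKY30 and the gene similar to WRKY8 peaked on day 2.

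Among the genes tied to abscisic acid and gibberellin, hormones whose balance sets seed germination, Os11g0490900 (WRKY72) was higher on each day. It acts with abscisic acid in aleurone cells, the secretory layer around the seed's endosperm. Its levels were 3.73, 14.2, 38.6 and 67.6 FPKM in total RNA and 3.43, 17.1, 35.6 and 69.5 FPKM in mRNA. Each day lay above the one before in both kinds, with log2 ratios of 1.69, 3.06 and 3.86 on days 1, 2 and 3 in total RNA and of 2.03, 3.05 and 3.99 in mRNA. Of the 5 day 1 calls of higher genes, this was the one that stayed a call in each alternative calculation with the 2-fold rule.

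Os01g0826400 (WRKY24), a repressor of both hormone responses in aleurone cells, stayed within the rule on days 1 and 2 and stood far above it on day 3. It had 4.59, 2.66, 8.09 and 64.3 FPKM in total RNA and 2.81, 2.07, 3.54 and 38.8 FPKM in mRNA, with day 3 ratios of 3.54 and 3.38. Os04g0287400 (WRKY51), a repressor of the gibberellin response there, had 66.6, 76.3, 99.5 and 112 FPKM in total RNA and 37.6, 48.2, 54.6 and 68.6 FPKM in mRNA. Each step was upward in the deposited FPKM, but not in both kinds under either other scaling. The day 3 ratios of 0.74 and 0.85 were under the rule, and they became 1.10 and 1.41 with median-ratio scaling, which gave a call. Os01g0584900 (WRKY77), which acts with abscisic acid, had 5.67 and 4.79 FPKM on day 3 against 2.68 and 1.13 FPKM in the well-watered libraries, and passed the rule in mRNA alone (0.86 in total RNA, 1.44 in mRNA). It was called higher on day 3 with 0.1 FPKM added and under both other scalings.

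Genes tied to senescence and drought tolerance differed in timing. Os02g0462800 (WRKY42), which promotes leaf senescence in rice, had 0.367, 0.567, 3.02 and 27.9 FPKM in total RNA and 0, 0.652, 2.01 and 17.1 FPKM in mRNA. Its day 3 ratios of 4.40 and 4.18 were second among the 52 genes in both kinds with 1 FPKM added, with the well-watered mRNA library listed at 0. Os08g0499300 (WRKY30), whose overexpression raises drought tolerance in rice, had 3.62, 7.71, 12.6 and 4.32 FPKM in total RNA and 4.14, 8.90, 14.9 and 4.79 FPKM in mRNA. It was called on day 2 alone (1.56 and 1.63), and on day 3 it was back near the well-watered level (0.20 and 0.17). Its day 1 ratios of 0.91 and 0.95 lay close under the limit, and with 0.1 FPKM added they gave a call (1.07 and 1.09).

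Os01g0626400 (WRKY11), whose heat-driven expression protects rice seedlings from heat and drought, remained weak: 3.08 and 5.11 FPKM on day 3 against 0.858 and 1.27 FPKM in the well-watered libraries, with ratios of 1.14 and 1.43. Os05g0583000, described as similar to WRKY8, had 0.733, 7.09, 15.9 and 7.63 FPKM in total RNA and 0.624, 5.13, 10.5 and 6.03 FPKM in mRNA. It had ratios of 2.22 and 1.92 on day 1, peaked on day 2 (3.29 and 2.82) and was lower again on day 3 (2.32 and 2.11). With an added 5 FPKM its day 1 and day 3 calls were lost.

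Sugar- and growth-linked members differed among themselves. Os09g0481700, described as SUSIBA2-like after the barley factor of sugar signalling, had 25.8, 21.0, 21.7 and 21.4 FPKM in total RNA and 30.1, 23.7, 22.6 and 23.6 FPKM in mRNA, within the rule on each day. A second gene described as similar to it, Os07g0596900, was higher on days 2 and 3. That gene had 11.1 and 16.5 FPKM on day 3 against 3.41 and 5.73 FPKM in the well-watered libraries (1.46 and 1.38). Both calls were lost with an added 5 FPKM, and an added 0.1 FPKM gave a day 1 call as well (1.08 and 1.00). Os07g0583700 (WRKY78), which supports stem elongation and seed development, was highest on day 2 in both kinds but passed the rule on no day, with ratios of 0.78 and 0.64 on day 2. With median-ratio scaling WRKY78 was highest on day 3.

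Several of the genes with high ratios are described only as similar to WRKY factors. Os02g0181300 (chromosome 2, 4544306 to 4544841) had 14.2, 31.3, 75.4 and 245 FPKM in total RNA and 11.4, 25.9, 53.5 and 164 FPKM in mRNA. It was called higher on each day, with day 3 ratios of 4.02 and 3.74, and was second in level among the 52 genes on day 3 in both kinds. Its day 1 ratios of 1.09 and 1.12 were close to the limit and fell under it in total RNA with either other scaling. Os01g0246700, described as similar to WRKY1, was higher on days 2 and 3, at 99.1 and 135 FPKM on day 3 against 14.7 and 19.0 FPKM in the well-watered libraries (2.68 and 2.77).

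Os03g0321700, described as similar to WRKY55, had the highest day 3 ratios of the family with 1 FPKM added, 4.72 and 4.62. With 0.1 FPKM added, the mean ratio of WRKY42 (Os02g0462800) over the kinds was above that of this gene. Its levels were 0.784, 4.85, 15.0 and 46.1 FPKM in total RNA and 0.907, 4.53, 13.01 and 46.0 FPKM in mRNA. It overlaps another WRKY gene, Os03g0321800, by 1092 bases on chromosome 3. The overlapping gene had 4.33, 6.27, 7.41 and 7.12 FPKM in total RNA and 3.01, 7.22, 6.12 and 3.93 FPKM in mRNA, and passed the rule on no day. The sources used here do not say how fragments of the shared bases were divided, so the split between the pair is uncertain.

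Below WRKY45, the lower genes of day 3 were mostly of modest level. Os05g0129800, described by its WRKY domain alone, had 17.6, 9.06, 4.83 and 2.27 FPKM in total RNA and 19.1, 10.3, 5.90 and 3.31 FPKM in mRNA, a drop at each step with day 3 ratios of -2.51 and -2.22. Os01g0656400, similar to WRKY15, had 0.869 and 0.608 FPKM on day 3 against 7.92 and 5.85 FPKM in the well-watered libraries (-2.25 and -2.09). Os11g0686400, similar to WRKY41, had 1.35 and 0.691 FPKM against 9.60 and 5.79 FPKM (-2.17 and -2.01). Os07g0680400 had 0.273 and 0.498 FPKM against 2.81 and 3.72 FPKM (-1.58 and -1.66). Of the 8 genes lower on day 3, WRKY45 and Os05g0129800 were the 2 whose call stood in each alternative with the 2-fold rule in which they passed the filter; for the higher genes this held for 15 of 23.

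Neighbouring WRKY genes did not always share a direction on day 3, though each opposite pair held a gene under the filter. On chromosome 11, Os11g0116900 and Os11g0117400 lie 19144 bases apart. Os11g0116900 had 7.55, 16.8, 37.5 and 31.5 FPKM in total RNA and 5.83, 23.3, 44.1 and 40.1 FPKM in mRNA, and Os11g0117400 had 22.02, 36.4, 72.9 and 55.8 FPKM in total RNA and 12.7, 22.5, 36.0 and 32.7 FPKM in mRNA. Both peaked on day 2 in both kinds, also with quantile-normalized values. With median-ratio scaling both rose at each step and were highest on day 3. Os11g0117600, 11317 bases from Os11g0117400 and under the filter, was lower on day 3 (-1.93 and -1.14), at 0.234 and 0.124 FPKM on day 3 against 3.71 and 1.47 FPKM in the well-watered libraries. On chromosome 12, Os12g0116400 had day 3 ratios of 2.35 and 2.71, where Os12g0116700, 18147 bases away and under the filter, had -1.28 and -0.86. Os12g0116700 had 1.43 and 0.817 FPKM in the well-watered libraries and 0 FPKM in both kinds on day 3, and was not called. Os11g0117600, Os12g0116400 and Os12g0116700 were chosen after their values were seen.

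Taken by course, 15 of the 52 genes had a level above that of the step before at each step in both kinds, as did 13.9% of all genes, and 6 fell at each step, as did 17%. Under each of the other scalings 3 fell at each step, against 17.5% of all genes with median-ratio scaling and 18.6% with quantile-normalized values. WRKY45 was not among the 3 under either. The genes that rose at each step were 16 of 53 under median-ratio scaling, against 20.1% of all genes. With quantile-normalized values they were 13 of 54, against 14.8%. WRKY51 was among the 15 but rose at each step in both kinds under neither other scaling. The highest level was on day 3 in both kinds for 26 genes (21.5% of all genes), in the well-watered library for 13 (22.1%), on day 2 for 6 (12.3%) and on day 1 for 2 (19.8%), and it differed between the kinds for 5 (24.3%). The day 1 peaks were those of Os07g0680400 and Os03g0444900. Under median-ratio scaling, 35 of 53 genes were highest on day 3 (37.7% of all genes), 3 on day 2 (8.81%) and 0 on day 1 (5.47%). The day 1 peaks are thus not stable to scaling, and the day 1 share of all genes also fell, from 19.8%. The day 2 peaks of WRKY30 and of the gene similar to WRKY8 stood under both other scalings.

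The WRKY genes together made up 0.0940%, 0.0879%, 0.132% and 0.233% of all summed FPKM in total RNA, from the well-watered library through day 3. In mRNA the shares were 0.0941%, 0.0911%, 0.129% and 0.225%. The number of genes at 10 FPKM or more was 17, 16, 21 and 27 in total RNA libraries, in order of treatment, and 18, 21, 24 and 26 in mRNA libraries. The order of the most abundant genes changed as well. On day 3 WRKY53 (Os05g0343400), Os02g0181300 and WRKY51 (Os04g0287400) led total RNA with 264, 245 and 112 FPKM, where WRKY45, WRKY53 and WRKY51 led the well-watered library at 123, 101 and 66.6 FPKM. In mRNA the day 3 leaders were WRKY53, Os02g0181300 and Os01g0246700, with 292, 164 and 135 FPKM. Without replicates, neighbours in these orders cannot be told apart.

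**Figure D4:**
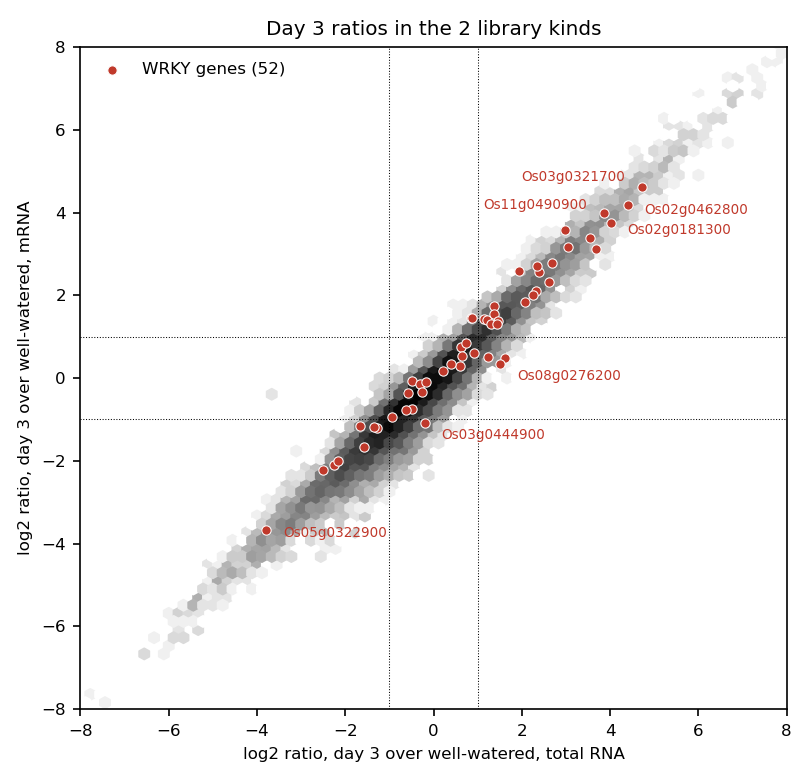
Day 3 log2 ratio over the well-watered library in total RNA (x axis) and in mRNA (y axis) for the 52 WRKY genes (red) over all genes that passed the filter (grey hexagons, darker where more genes fall on a log scale), with dotted lines at the limits of the rule. The WRKY points lie along the diagonal, with Os08g0276200 and Os03g0444900 below it, and 32 genes beyond a ratio of 8 in size, none of them a WRKY gene, are not drawn.

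The library kinds gave close ratios for most members. The median absolute difference between the log2 ratios of the kinds was 0.16, 0.19 and 0.19 for WRKY genes on days 1, 2 and 3, and 0.15, 0.16 and 0.24 for all genes. It was widest for Os08g0276200, described as similar to WRKY44 (TRANSPARENT TESTA GLABRA 2, a factor of trichome and seed coat formation in Arabidopsis). That gene had 6.06, 10.5, 7.17 and 19.2 FPKM in total RNA and 23.2, 25.9, 29.9 and 29.8 FPKM in mRNA, so its day 3 ratio was 1.52 in total RNA and 0.34 in mRNA. Os01g0665500, similar to WRKY16, likewise had 1.63 and 0.49, and Os03g0444900, similar to WRKY30, had -0.20 and -1.07. In mean level WRKY45 lay furthest towards total RNA (log2 of total RNA over mRNA, 0.80) and Os08g0276200 furthest towards mRNA (-1.38).

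Of the 52 genes, 10 have more than 1 annotated transcript in the tables. For WRKY45 (Os05g0322900) the first transcript held 78.6%, 77.3%, 77.8% and 83.8% of the gene's FPKM in total RNA and 89.5%, 91.5%, 89.5% and 74.5% in mRNA. All 3 transcripts of the gene had lower FPKM on each drought day than in the well-watered library of the same kind. For WRKY76 (Os09g0417600) the second transcript held 3.77% on day 1 against 49.8% in the well-watered library in total RNA, and 12.4% against 20.1% in mRNA. In total RNA it held 43.1% on day 2 and 43.4% on day 3, but in mRNA only 8.24% and 11.7%, so the kinds differed there. For WRKY28 (Os06g0649000) the second transcript held 84.9% and 87.4% on day 3 against 69.6% and 65.6% in the well-watered libraries. Shares of transcripts that overlap are estimates and were not tested.

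Genes that work with WRKY factors were counted by the same rule from the wording of their descriptions. Of 28 described VQ proteins 15 passed the filter, and 3, 6 and 10 were higher on days 1, 2 and 3, where 6.93%, 14.5% and 18.2% of all genes were. On each of these days 2 VQ genes were lower, where 2.46%, 11.1% and 25.9% of all genes were. The VQ gene Os12g0635400 had 1.61, 7.30, 33.7 and 98.7 FPKM in total RNA and 2.16, 10.5, 52.2 and 143 FPKM in mRNA, and Os06g0618700 had 0.506 and 0.181 FPKM on day 3 against 21.9 and 20.5 FPKM in the well-watered libraries. Of 35 kept genes of the MAP kinase cascade 9 were higher and 3 lower on day 3, against 18.2% and 25.9% of all genes. Of the 3 lower calls, 2 were lost under median-ratio scaling. With quantile-normalized values 7 of the 35 were higher on day 3, near the 19.5% of all genes, and 4 were lower, against 20.4%. On days 1 and 2, 0 and 3 were higher, against 6.93% and 14.5% of all genes, and 0 were lower. The MAP kinase gene Os03g0285800 had 8.58, 8.70, 14.2 and 118 FPKM in total RNA and 6.10, 6.36, 10.6 and 143 FPKM in mRNA, and was called on day 3 alone, as WRKY53 and WRKY70 were. A second one, Os07g0584100, was higher on days 2 and 3, with day 3 ratios of 3.29 and 3.41.

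On the salicylate side, 4 genes passed the filter, with 1 higher and 1 lower on day 3, where 18.2% and 25.9% of all genes were. Counts this small cannot be told apart from those shares. The lower one, Os03g0667100, is described as similar to an NPR1-like protein, a relative of NPR1, which binds salicylate and co-activates defence genes in Arabidopsis. It had 19.0, 7.08, 4.01 and 1.80 FPKM in total RNA and 24.2, 10.1, 4.08 and 2.15 FPKM in mRNA, and was lower on each day, as WRKY45 was. The gene similar to NPR1 itself, Os01g0194300, passed on no day (-0.55 and -0.23 on day 3), and is named after its values were seen. The higher one, Os01g0787600, similar to salicylic acid-binding protein 2, had 4.44 and 3.39 FPKM on day 3 against 0.203 and 0.145 FPKM in the well-watered libraries. Of 13 kept pathogenesis-related proteins 3 were higher on day 3, near the 18.2% of all genes that were, and 1 was lower, against 25.9%. Of the higher ones, the thaumatin-family gene Os12g0630200 had 33.5 and 35.6 FPKM on day 3 against 3.57 and 3.79 FPKM in the well-watered libraries. Os02g0570900, similar to ent-copalyl diphosphate synthase 2, which opens the route to diterpene phytoalexins, had 0.191 and 0.116 FPKM on day 3 against 19.8 and 11.9 FPKM in the well-watered libraries. With an added 5 FPKM, the VQ genes called higher were 1, 2 and 6 of 15 on the 3 days, where 3.58%, 9.07% and 13.9% of all genes were. The pathogenesis-related ones were then 1 on day 3, and the salicylate ones 0.

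Around the level filter, the members just inside were Os02g0770500, with 0.127, 0.620, 2.02 and 1.59 FPKM in total RNA and 0.0347, 0.562, 1.89 and 1.73 FPKM in mRNA, and Os05g0565900, with 0.196, 0.349, 0.677 and 4.01 FPKM in total RNA and 0.388, 0.622, 0.853 and 4.00 FPKM in mRNA. The genes just outside were Os12g0102350, with means of 0.972 FPKM in total RNA and 9.69 FPKM in mRNA, and Os08g0235800, with means of 0.910 and 3.10 FPKM.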

How the data were processed

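Leaf RNA was sequenced as total RNA and mRNA libraries. The build was IRGSP-1.0, and the tools were StringTie 1.3.3b, HISAT2 2.0.5, Bowtie2 2.2.6, Trimmomatic 0.32 and FastQC 0.10.0, per the submitters' processing notes, which name no role or order. The sources used here give no strand setting for the quantification. The authors deposited FPKM per transcript and library in 1 table per library kind, per the file headers. The log2 values in the same deposited tables were used only as an alternative.

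FPKM were summed per gene. Ratios, the filter (mean FPKM of 1 or more in each table) and the 2-fold rule were computed in Python 3.11.15 with pandas 2.3.3. The ratios and the rule were checked on simulated data. That check held no true ratio near the 2-fold limit and no gene weak in the well-watered library. It says nothing about calls there. No test was run, since each group holds 1 library. Members and gene lists were chosen with earlier results of these data known. Genes were named by day ranking, abundance, known WRKY number, peak day, difference between kinds and closeness to the filter. Other members named are marked as chosen after their values were seen, or stand as neighbours or filter cases. Exclusions by wording removed 20 ERF-type genes from the pathogenesis-related list. The alternatives were other pseudocounts, filters, scalings, transcript handling, single library kinds and a 4-fold rule. A RefSeq table of another assembly was not used, so no sequences are shown.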

Additional observations from a re-analysis of the deposited data

Results flagged for a closer look

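A WRKY gene outside the described set passed the 2-fold rule. Os01g0624700, similar to WRKY12, lies under the level filter and had 2.11 FPKM in total RNA and 2.24 FPKM in mRNA on day 3, against 0.460 and 0.193 FPKM in the well-watered libraries (log2 ratios 1.09 and 1.44). With 1 library per group this has no replicate check, and no explanation was weighed.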

How the results depend on the processing

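Calls were recomputed under 10 alternatives, and none reversed a direction. An added 0.1 FPKM gave 8 higher genes on day 1 (9.68% of all genes). An added 5 FPKM gave 1 higher gene on day 1 (3.58% of all genes), then 8 higher against 3 lower on day 2 (9.07% and 6.55%), with 2 lower genes left on day 3 (13.5%). A minimum mean of 5 FPKM kept 29 WRKY genes, of 12221 genes of any kind. Lower were 1 for day 1 (2.4% of all genes), 2 for day 2 (10.98%) and 2 for day 3 (23.88%). Beside these, 15 were higher for day 3 (20.98%). Median-ratio scaling gave 3 higher against 5 lower genes for day 1, with 5 lower for day 3. Quantile-normalized values gave 3 higher against 6 lower genes for day 1, with 5 lower for day 3. A 4-fold rule left 0 higher against 1 lower gene for day 1, 5 against 2 for day 2, and 13 against 4 for day 3. Counts with no filter, in 1 library kind or from the most abundant transcript stayed within 1.5 times. The cause of these shifts was not tested, apart from fewer genes and a stricter limit where the setting itself sets them. No paired analysis was possible because each treatment has 1 library per kind and no test was run. Depth limits genes near 1 FPKM most.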
